A study of Mus musculus with 10 samples.

Results

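Slc7a11, Txnrd1, Hmox1, Gclm, Gclc, Srxn1, Prdx1, Nqo1 and Gsr, 9 genes best known as targets of the transcription factor NRF2, were followed together with Sod2 in bone-marrow-derived macrophages. The 10 genes were taken by symbol from the deposited table of 11617 genes, and all 10 were listed, passed the filter on low values and were tested. The cells came from C57BL/6 mice, given as 7 weeks old in the growth protocol and as 6 weeks old in the origin label. Cells of every group, control included, were grown in DMEM that held 10% FBS together with GM-CSF at 50 ng/ml, the colony-stimulating factor that drives growth of myeloid cells. The groups were AmTARS for 3 h, AmTARS for 1 h, Pam3CSK4 at 10 ng/ml for 3 h, Pam3CSK4 at 10 ng/ml for 1 h, and control, whose labels name neither a treatment nor a time. Each group had 2 libraries. Pam3CSK4 (spelled Pam3csk4 and Pam3sck4 by the submitters) is a synthetic lipopeptide that activates Toll-like receptor 2, and AmTARS is taken from its name to be an enzyme of Akkermansia muciniphila, a gut bacterium, that charges tRNA with threonine. The AmTARS dose carries a unit that cannot be set against ng/ml, so the ligands were not compared at a matched dose. The labels do not say whether replicate libraries were made from separate mice or cultures, so the p-values measure the spread between these libraries, which may be technical.

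NRF2, encoded by Nfe2l2, is held in the cytosol by KEAP1, which presents it to a ubiquitin ligase for breakdown. Oxidants and electrophiles modify KEAP1, and NRF2 then enters the nucleus and binds antioxidant response elements as a pair with a small MAF protein. In macrophages its targets import cystine for glutathione, recycle glutathione and thioredoxin with NADPH, and break down haem, while Sod2, the mitochondrial manganese superoxide dismutase, is known as a target of NF-kB.

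Stretches of promoter that hold a match to the element of either factor are shown because both factors are known to act at such elements. RefSeq windows on GRCm38.p6, which run from 250 bases before to 50 bases after a listed start, were at hand for 7 of the 10 genes. These were Srxn1, Slc7a11, Gclm, Prdx1, Nqo1, Txnrd1 and Sod2. The Sod2 window, chr17:13007589-13007888, lies inside the Sod2 span given below from GENCODE M21, which has an earlier start. The core antioxidant response element, TGACNNNGC or its reverse complement GCNNNGTCA, was searched on both strands and found in the windows of Srxn1, Gclm, Prdx1 and Txnrd1. It lay in 12.4% of all 32851 mouse promoter windows of that length. The NF-kB site was matched in Sod2 and Prdx1 and in 8.46% of all windows. In the sequences below, read on the gene's own strand, which is the plus strand for each, the capitals mark the matched element.
Srxn1, chr2:152105527-152105573: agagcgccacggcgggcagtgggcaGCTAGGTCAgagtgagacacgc
Txnrd1, chr10:82859089-82859147: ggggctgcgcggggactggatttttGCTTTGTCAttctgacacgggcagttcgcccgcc
Gclm, chr3:122245398-122245456: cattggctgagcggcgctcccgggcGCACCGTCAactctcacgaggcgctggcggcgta
Prdx1, chr4:116685441-116685499: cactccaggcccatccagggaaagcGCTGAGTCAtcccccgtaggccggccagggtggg
Sod2, chr17:13007731-13007790: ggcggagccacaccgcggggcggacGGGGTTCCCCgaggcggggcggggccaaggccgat
Prdx1, chr4:116685404-116685463: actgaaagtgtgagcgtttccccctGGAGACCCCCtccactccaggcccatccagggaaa
The first 4 match the antioxidant response element and the last 2, in Sod2 and Prdx1, match the NF-kB motif. A match describes the letters and does not show binding. The Srxn1 match began at position 29, after the start site, and the Txnrd1 match at position -92, in 1 of its 3 listed start windows. The Gclm match began at position -134, the Prdx1 match at -133, the Sod2 match at -83 and the NF-kB match in Prdx1 at -170. The AP-1 site TGANTCA, searched on both strands, had 2 matches each in Srxn1 and Prdx1, with 1 of the Prdx1 matches overlapping its antioxidant response element, and it lay in 7.81% of all windows. None of the 3 elements was matched in these windows of Slc7a11 and Nqo1.

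Stranded poly(A) RNA libraries held 27398791 to 37559810 reads in the listed genes. The summed CPM (read counts scaled to library size) of the listed genes was 998260 to 1037796 in the treated libraries, against 959639 and 960837 in the control libraries. Fold changes against control followed transcript length across 11365 genes, with Spearman's rho of -0.672 for AmTARS at 3 h, -0.741 for AmTARS at 1 h, -0.513 for Pam3CSK4 at 3 h and -0.739 for Pam3CSK4 at 1 h. Results against control are therefore given also after a correction for length and GC content, called corrected below. The libraries of the Pam3CSK4 3 h group differed more from each other (chi-square of 9.25 per degree of freedom over genes) than those of the other groups (3.62 to 5.06). All 8 macrophage markers were listed, with a summed level of 48734 to 52983 CPM over the 10 libraries. Lyz2 made up most of the sum at 42922 to 47748 CPM. Mertk ranged from 28.1 to 67.1 CPM, and Cd68 from 1524 to 1654 CPM. Of 8 neutrophil markers 7 were listed and Ly6g was not, and of 8 dendritic cell markers 3 were listed at a summed 61.3 to 72.9 CPM, without Flt3, Zbtb46, Dpp4, Cd209a and Clec9a. None of 7 T, B and NK cell markers was listed, and 4 of 5 mast cell and basophil markers summed to 11.4 to 15.3 CPM.

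Prdx1 and Hmox1 stood at the top of the 10 genes and Nqo1 at the bottom when levels were divided by transcript length. In control, Prdx1 had a mean of 694 and Hmox1 of 437 CPM per kilobase. Txnrd1 (54.5 CPM per kilobase), Gsr (54.2), Srxn1 (43.0) and Sod2 (29.2) followed, then Gclm (13.0), Gclc (8.55), Slc7a11 (7.63) and Nqo1 (3.20). Prdx1, Hmox1, Srxn1 and Nqo1 kept their ranks in all 5 groups, and the neighbours Txnrd1 and Gsr traded places. With Pam3CSK4 at 3 h, Sod2 stood at rank 3 and Slc7a11 at rank 7, against rank 6 and rank 9 in each other group. Gsr then stood at rank 6 with 76.1 CPM per kilobase, just under Srxn1 with 77.2, and Gclm and Gclc stood at ranks 8 and 9. On mm10 with GENCODE M21, Slc7a11 spans chr3:49892526-50443614 (minus strand), Gclc chr9:77754535-77794485, Gclm chr3:122245557-122270732 and Gsr chr8:33652523-33698163. Txnrd1 spans chr10:82833951-82897712, Prdx1 chr4:116685544-116700822 and Srxn1 chr2:152105516-152111376. Hmox1 spans chr8:75093621-75100589, Nqo1 chr8:107388225-107403206 (minus strand) and Sod2 chr17:13006846-13040063. Between 139 and 80407 reads lay behind each value of a gene in a library, the fewest in Nqo1 and the most in Prdx1. Txnrd1 overlaps Eid3 and 2 non-coding genes, and Slc7a11, Gclm and Gsr overlap non-coding genes or pseudogenes. None of these was listed, and how the counting used strand was not given in the sources used here.

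**Figure D1:**
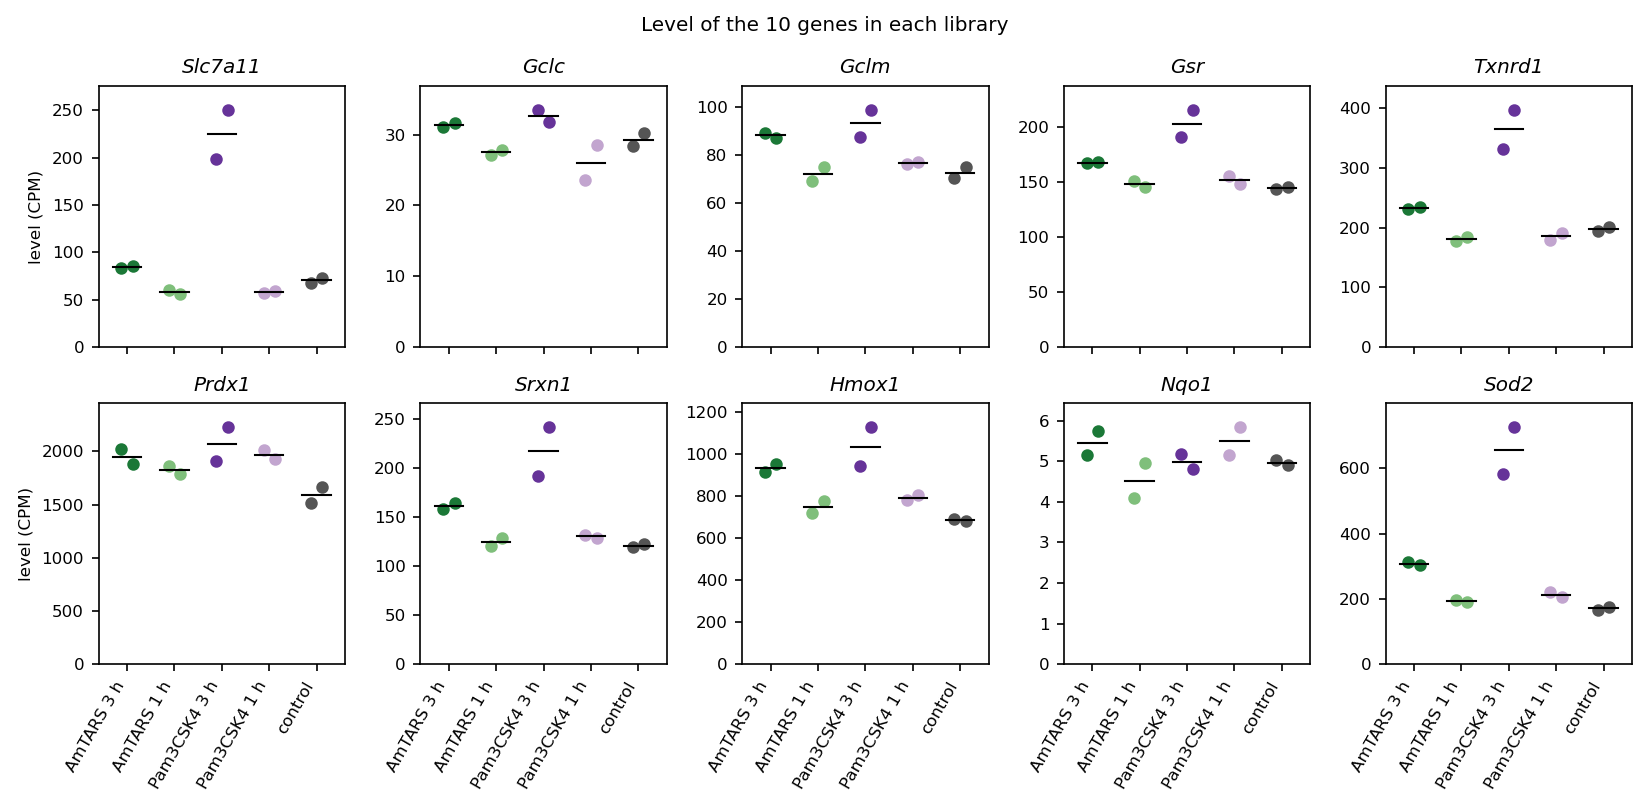
Level of each of the 10 genes in CPM (linear axis from 0) in each of the 10 libraries; points are libraries and the bar is the mean of the 2. Slc7a11, Txnrd1, Srxn1 and Sod2 had their highest values in the Pam3CSK4 3 h libraries, with 199 and 251 CPM for Slc7a11, and Nqo1 stayed between 4.10 and 5.85 CPM.

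The cystine importer changed more than the glutathione enzymes with Pam3CSK4 at 3 h, though differences between genes were not tested. Slc7a11, Gclm and Gsr rose with both ligands, Slc7a11 far more with Pam3CSK4, while Gclc, uncorrected, did not pass the test with either. Slc7a11, the light chain of the cystine-glutamate exchanger, was at 83.0 and 85.7 CPM with AmTARS at 3 h, 60.3 and 56.0 CPM with AmTARS at 1 h, 199 and 251 CPM with Pam3CSK4 at 3 h, 57.0 and 58.9 CPM with Pam3CSK4 at 1 h, and 67.7 and 73.1 CPM in control. Both 3 h groups thus lay above control and both 1 h groups below it, with no overlap. The log2 fold change, computed throughout on log2(CPM + 1), was 0.26 (SE 0.075, adjusted p = 0.0111) with AmTARS at 3 h and 1.65 (SE 0.075, adjusted p = 6.78e-13) with Pam3CSK4 at 3 h, by limma with Benjamini-Hochberg adjustment over 11407 genes. Corrected for length and GC content, these were 0.55 and 1.89.

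Gclc, the catalytic subunit of glutamate-cysteine ligase, the rate-limiting enzyme of glutathione synthesis, was at 31.1 and 31.6 CPM with AmTARS at 3 h, 27.2 and 27.8 CPM with AmTARS at 1 h, 33.5 and 31.8 CPM with Pam3CSK4 at 3 h, 23.5 and 28.5 CPM with Pam3CSK4 at 1 h, and 28.3 and 30.2 CPM in control. The 3 h libraries all lay above control, by little. Its log2 fold change was 0.095 (95% interval -0.060 to 0.25) with AmTARS and 0.15 (-0.0035 to 0.31, adjusted p = 0.0984) with Pam3CSK4 at 3 h. Corrected, the Pam3CSK4 value was 0.19 and passed (adjusted p = 0.0236), and it also passed uncorrected without either Pam3CSK4 1 h library (adjusted p = 0.0475 without replicate 1 and 0.0485 without replicate 3).

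Gclm, the modifier subunit of the same ligase, was at 89.0 and 87.2 CPM with AmTARS at 3 h, 69.2 and 74.9 CPM with AmTARS at 1 h, 87.5 and 98.8 CPM with Pam3CSK4 at 3 h, 76.1 and 77.2 CPM with Pam3CSK4 at 1 h, and 70.2 and 74.8 CPM in control. Gsr, which reduces oxidised glutathione with NADPH, was at 168 CPM in both AmTARS 3 h libraries, 151 and 146 CPM with AmTARS at 1 h, 191 and 216 CPM with Pam3CSK4 at 3 h, 155 and 149 CPM with Pam3CSK4 at 1 h, and 144 and 145 CPM in control. For both genes the 3 h libraries of either ligand lay above both control libraries. Gclm rose by 0.28 (SE 0.059) with AmTARS and 0.36 (SE 0.059) with Pam3CSK4 at 3 h on the log2 scale, and Gsr by 0.21 (SE 0.053) and 0.48 (SE 0.053) in the same order. Corrected values for Gclm were larger, 0.46 and 0.50. With the replicate number as a block in limma, Slc7a11 (0.22, adjusted p = 0.0541) and Gsr (0.17, adjusted p = 0.0533) did not pass with AmTARS at 3 h. The Slc7a11 rise with AmTARS at 3 h did not pass without AmTARS 3 h replicate 3 (0.24, adjusted p = 0.0637) or control replicate 2 (0.20, adjusted p = 0.129), nor when the variance was moderated without the intensity trend (0.26, adjusted p = 0.0692).

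Txnrd1, Srxn1 and Prdx1, the 3 followed genes that act with thioredoxin or peroxiredoxins, rose at 3 h with both ligands, Txnrd1 and Srxn1 more with Pam3CSK4. The rise is stated for these 3 genes only, since further thioredoxin and peroxiredoxin genes, listed below, included both rises and falls with each ligand. Txnrd1, the cytosolic thioredoxin reductase, was at 232 and 235 CPM with AmTARS at 3 h, 178 and 184 CPM with AmTARS at 1 h, 332 and 398 CPM with Pam3CSK4 at 3 h, 180 and 191 CPM with Pam3CSK4 at 1 h, and 194 and 201 CPM in control. Srxn1, sulfiredoxin, which repairs overoxidised peroxiredoxins, was at 158 and 164 CPM with AmTARS at 3 h, 120 and 128 CPM with AmTARS at 1 h, 192 and 242 CPM with Pam3CSK4 at 3 h, 132 and 129 CPM with Pam3CSK4 at 1 h, and 119 and 123 CPM in control. In both genes the order was Pam3CSK4 3 h, AmTARS 3 h, then the remaining groups, with no overlap between the first 2 and the rest. Prdx1, a peroxiredoxin that reduces hydrogen peroxide and is reduced in turn by thioredoxin, was at 2024 and 1879 CPM with AmTARS at 3 h, 1862 and 1791 CPM with AmTARS at 1 h, 1913 and 2231 CPM with Pam3CSK4 at 3 h, 2014 and 1925 CPM with Pam3CSK4 at 1 h, and 1516 and 1668 CPM in control. Each of the 8 treated libraries exceeded both control libraries for Prdx1, and the treated groups overlapped one another except AmTARS at 1 h, which lay below the other treated libraries.

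Txnrd1 rose by 0.24 (SE 0.061, adjusted p = 0.00459) with AmTARS and 0.88 (SE 0.061, adjusted p = 5.43e-10) with Pam3CSK4 at 3 h on the log2 scale. Srxn1 rose by 0.41 (SE 0.071) with AmTARS and 0.83 (SE 0.071) with Pam3CSK4, and Prdx1 by 0.29 (SE 0.064) and 0.38 (SE 0.064) in the same order. Corrected values were close, at 0.29 and 0.94 for Txnrd1, 0.38 and 0.81 for Srxn1, and 0.27 and 0.30 for Prdx1. The Txnrd1 rise with AmTARS did not pass without control replicate 2 (0.22, adjusted p = 0.0573).

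Hmox1 rose with both ligands at 3 h and Nqo1 did not pass with either. Hmox1, haem oxygenase 1, which splits haem into biliverdin, iron and carbon monoxide, was at 915 and 953 CPM with AmTARS at 3 h, 720 and 776 CPM with AmTARS at 1 h, 941 and 1128 CPM with Pam3CSK4 at 3 h, 779 and 806 CPM with Pam3CSK4 at 1 h, and 690 and 681 CPM in control. All treated libraries were above control, and the 3 h groups of the 2 ligands overlapped. The log2 fold change was 0.45 (SE 0.062, adjusted p = 3.89e-05) with AmTARS and 0.59 (SE 0.062, adjusted p = 2.35e-07) with Pam3CSK4 at 3 h, and corrected 0.29 and 0.44. Nqo1, a quinone reductase often used as a readout of NRF2, was at 5.15 and 5.76 CPM with AmTARS at 3 h, 4.10 and 4.95 CPM with AmTARS at 1 h, 5.17 and 4.80 CPM with Pam3CSK4 at 3 h, 5.15 and 5.85 CPM with Pam3CSK4 at 1 h, and 5.03 and 4.91 CPM in control. The AmTARS 3 h and Pam3CSK4 1 h libraries lay just above control, and those of AmTARS at 1 h and Pam3CSK4 at 3 h overlapped it. Its log2 fold change was 0.11 (95% interval -0.11 to 0.33) with AmTARS and 0.0033 (-0.21 to 0.22) with Pam3CSK4 at 3 h, and corrected -0.0061 and -0.14.

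Sod2 had the largest log2 fold change of the 10 genes at 3 h with each ligand. It was at 313 and 303 CPM with AmTARS at 3 h, 198 and 190 CPM with AmTARS at 1 h, 583 and 727 CPM with Pam3CSK4 at 3 h, 221 and 205 CPM with Pam3CSK4 at 1 h, and 167 and 175 CPM in control. The 5 groups did not overlap, in the order Pam3CSK4 3 h, AmTARS 3 h, Pam3CSK4 1 h, AmTARS 1 h and control. The log2 fold change at 3 h was 0.84 (SE 0.069, adjusted p = 1.92e-07) with AmTARS, a 1.80-fold rise, and 1.92 (SE 0.069, adjusted p = 2.43e-14) with Pam3CSK4, a 3.79-fold rise. Corrected, the values were 1.04 and 2.08.

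Against control at 3 h, 8 of the 10 genes passed as higher with AmTARS, where 18.8% of all tested genes passed as higher and 17.9% as lower, and 8 passed with Pam3CSK4, where the shares were 24.7% and 24.2%. After the correction the counts were 8 with AmTARS, where 10.8% of all genes passed as higher and 7.6% as lower, and 9 with Pam3CSK4, where the shares were 20.8% and 21.3%. The median log2 fold change of the 10 genes was 0.27 with AmTARS and 0.54 with Pam3CSK4, beside 0.0011 and -0.0068 over all genes tested. The 2 comparisons share the control libraries. Leaving out Pam3CSK4 3 h replicate 3, which was higher than replicate 2 for 8 of the 10 genes, left Slc7a11 at 1.49, Sod2 at 1.76, Txnrd1 at 0.75 and Srxn1 at 0.66. The 7 listed neutrophil markers, led by S100a9, S100a8 and Ngp, summed to 1888 to 1995 CPM with AmTARS at 3 h and 2082 to 2464 CPM with Pam3CSK4 at 3 h, against 1404 to 1491 CPM in control. Their part in these results was not tested, and the sums were not corrected for length and GC content. In bulk RNA more cells of a type cannot be told apart from more RNA per cell.

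**Figure D2:**
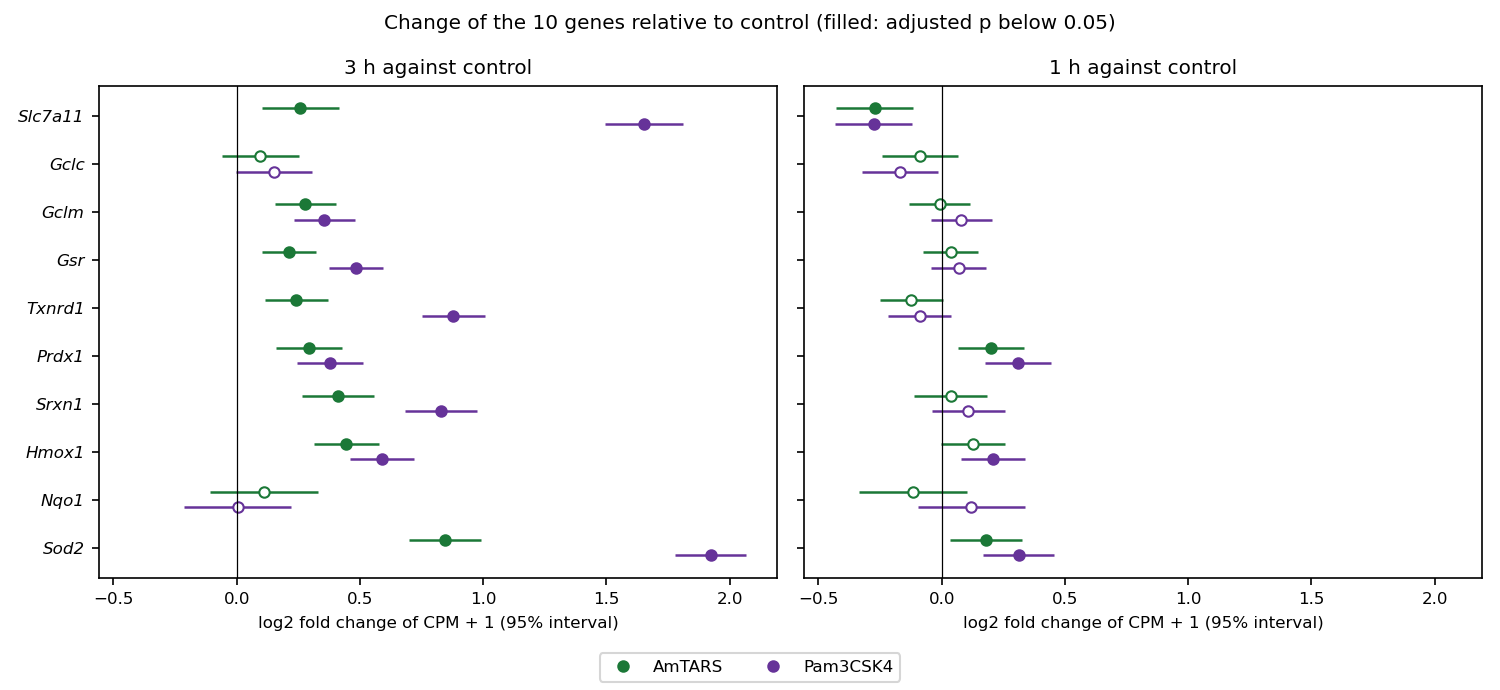
Log2 fold change against control (x axis, log2 of CPM + 1, uncorrected) of the 10 genes with AmTARS (green) and Pam3CSK4 (purple), at 3 h in the left panel and at 1 h in the right; bars are 95% intervals and filled points have an adjusted p below 0.05. At 3 h Slc7a11 stood at 0.26 with AmTARS and 1.65 with Pam3CSK4, while at 1 h the ligands' points for it lay together at -0.27 and -0.28.

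At 1 h few of the 10 genes passed against control. With AmTARS, Prdx1 rose by 0.20 (SE 0.064, adjusted p = 0.0185) and Sod2 by 0.18 (SE 0.069, adjusted p = 0.0456), while Slc7a11 fell by 0.27 on the log2 scale (SE 0.075, adjusted p = 0.00753). With Pam3CSK4, Sod2 and Prdx1 both rose by 0.31 and Hmox1 by 0.21 (adjusted p = 0.00922), while Slc7a11 fell by 0.28 on the log2 scale (adjusted p = 0.00489). The counts were 2 higher and 1 lower of 10 with AmTARS, where 18.9% of all genes passed as higher and 19.8% as lower, and 3 higher and 1 lower with Pam3CSK4, where the shares were 23.9% and 24.8%. These shares of members are near those of all genes. Corrected for length and GC content, Slc7a11, whose transcript of 9223 bases is the longest of the 10, was at 0.044 with AmTARS and 0.10 with Pam3CSK4 and did not pass with either. Hmox1, with 1569 bases among the shortest, was at -0.0023 with Pam3CSK4, whereas Gclm passed at 0.20 with AmTARS and 0.34 with Pam3CSK4. Sod2 was then at 0.40 and 0.59 and Prdx1 at 0.16 and 0.28, all passing, so 3 genes were higher with each ligand, where 8.13% of all genes were higher and 5.86% lower with AmTARS and 11.7% and 11.1% with Pam3CSK4.

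Several of the 1 h calls rested on single libraries. Sod2 with AmTARS did not pass without AmTARS 1 h replicate 2 or 3, AmTARS 3 h replicate 1 or 3, or control replicate 2 or 3 (0.15 to 0.21, adjusted p from 0.0513 to 0.231), and Prdx1 did not without AmTARS 1 h replicate 2 (0.17) or control replicate 2 (0.13). Slc7a11 did not pass at -0.22 without AmTARS 1 h replicate 3 or control replicate 3 with AmTARS, nor without control replicate 3 with Pam3CSK4, and Hmox1 with Pam3CSK4 did not without Pam3CSK4 1 h replicate 3 (0.18) or control replicate 3 (0.20). Conversely, Txnrd1 (-0.12) and Hmox1 (0.13) passed with AmTARS without either Pam3CSK4 3 h library, and Gclc (-0.30, adjusted p = 0.00298) with Pam3CSK4 without Pam3CSK4 1 h replicate 3. The number of genes passing was 1 to 5 with AmTARS and 2 to 4 with Pam3CSK4 over the libraries left out. It was 1 with AmTARS without AmTARS 1 h replicate 2 or 3 or control replicate 2 or 3, 5 without Pam3CSK4 3 h replicate 2 or 3, and 2 with Pam3CSK4 without control replicate 3. Without the intensity trend 0 of the 10 genes passed with AmTARS (adjusted p = 0.0548 for Slc7a11, 0.0865 for Prdx1 and 0.157 for Sod2) and Hmox1 did not pass with Pam3CSK4 (0.0613).

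Between 1 h and 3 h most of the genes rose with either ligand, a comparison that uses no control library. The control labels give no time, so the change from 1 h to 3 h without a ligand was not tested. A rise shared by both ligands cannot be told apart from one with time in culture. With AmTARS, 6 of 10 were higher at 3 h than at 1 h, where 1.81% of all genes passed as higher and 0.57% as lower. Sod2 rose by 0.66 (SE 0.069, adjusted p = 8.95e-06), Slc7a11 by 0.53 (SE 0.075, adjusted p = 0.00023), Srxn1 and Txnrd1 by 0.37 each, Hmox1 by 0.32 and Gclm by 0.29. With Pam3CSK4, 8 of 10 were higher at 3 h, where 16.2% of all genes were higher and 15.3% lower. Slc7a11 rose by 1.93 (SE 0.075), Sod2 by 1.61, Txnrd1 by 0.97, Srxn1 by 0.72, Gsr by 0.42, Hmox1 by 0.38, Gclc by 0.32 and Gclm by 0.28. The medians of the 10 genes were 0.30 with AmTARS and 0.40 with Pam3CSK4, beside 0.0017 and -0.014 over all genes. Across genes the change over time had a Spearman's rho with transcript length of 0.208 with AmTARS and 0.258 with Pam3CSK4. Corrected, 7 of the 10 were higher with AmTARS, where 311 of 11365 genes were higher and 153 lower. With Pam3CSK4 8 of the 10 were higher corrected, where 1865 of 11365 genes were higher and 1937 lower.

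Single libraries also touched this comparison. With AmTARS, Srxn1 (0.33 and 0.35) and Hmox1 (0.27 and 0.29) did not pass without AmTARS 1 h replicate 2 or AmTARS 3 h replicate 3, Gclm (0.23 to 0.30) did not without either of these or AmTARS 3 h replicate 1, and Gsr (0.18, adjusted p = 0.0987) passed without either Pam3CSK4 3 h library. The count with AmTARS was thus 3 without AmTARS 1 h replicate 2 or AmTARS 3 h replicate 3. With Pam3CSK4, Gclc did not pass without Pam3CSK4 1 h replicate 1 (0.19, adjusted p = 0.0868), Prdx1 (0.069) passed at 0.18 without Pam3CSK4 3 h replicate 2, and Hmox1 was at 0.25 without Pam3CSK4 3 h replicate 3. Without the intensity trend only Sod2 passed with AmTARS, and Slc7a11 had an adjusted p of 0.0547.

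Between the ligands, 5 of the 10 genes passed at 3 h and 0 at 1 h. At 3 h, AmTARS minus Pam3CSK4 was -1.39 for Slc7a11 (SE 0.075, adjusted p = 3.62e-11), -1.08 for Sod2 (SE 0.069, adjusted p = 4.31e-10), -0.64 for Txnrd1 (SE 0.061, adjusted p = 1.54e-07), -0.42 for Srxn1 (SE 0.071, adjusted p = 0.000196) and -0.27 for Gsr (SE 0.053, adjusted p = 0.00078), all lower with AmTARS in both of its libraries. Among all genes, 8.04% passed as higher and 9.08% as lower with AmTARS. Length and GC correction left these values at -1.34, -1.04, -0.65, -0.44 and -0.28. Across genes the contrast had a Spearman's rho of -0.00673 with transcript length. The other 5 did not pass, with 95% intervals of the difference of -0.27 to -0.012 for Hmox1, -0.22 to 0.051 for Prdx1, -0.20 to 0.046 for Gclm, -0.21 to 0.099 for Gclc and -0.11 to 0.32 for Nqo1. Without Pam3CSK4 3 h replicate 2, Hmox1 (-0.27, adjusted p = 0.00064) and Prdx1 (-0.19, adjusted p = 0.0272) passed as lower too, and without replicate 3 Srxn1 was at -0.25 and Gsr at -0.18.

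At 1 h, 0 of 10 genes passed between AmTARS and Pam3CSK4 by limma, 0 by voom on reads recovered from the values, and 1 had an unadjusted p below 0.05, Nqo1 at -0.24 (95% interval -0.45 to -0.020). Among all genes, 0.00877% were higher and 0.175% lower with AmTARS. Across genes this contrast had a Spearman's rho of 0.348 with transcript length, and corrected 0 of the 10 genes passed. Slc7a11 differed by 0.0046 (95% interval -0.15 to 0.16) and Sod2 by -0.13 (-0.28 to 0.013) at 1 h, and the intervals of the other 7 lay within -0.24 and 0.24.

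The change from 1 h to 3 h itself was smaller with AmTARS in the same 5 genes. The AmTARS change minus the Pam3CSK4 change was -1.40 for Slc7a11 (SE 0.11, adjusted p = 2.9e-08), -0.95 for Sod2 (SE 0.098, adjusted p = 1.21e-06), -0.60 for Txnrd1 (SE 0.087, adjusted p = 6.8e-05), -0.35 for Srxn1 (SE 0.10, adjusted p = 0.0312) and -0.24 for Gsr (SE 0.075, adjusted p = 0.0486). Of all genes, 3.49% passed as higher and 5.71% as lower. Across genes this difference had a Spearman's rho of -0.175 with transcript length. Corrected, 5 of the 10 genes passed as lower and 0 as higher, where 791 of 11365 genes were lower and 591 higher. Gsr kept its call only without Pam3CSK4 3 h replicate 2 among the 10 libraries left out in turn (adjusted p up to 0.225, at -0.15, without Pam3CSK4 3 h replicate 3). Srxn1 lost it without AmTARS 1 h replicate 3, AmTARS 3 h replicate 1 or 3, Pam3CSK4 1 h replicate 1 or 3, or Pam3CSK4 3 h replicate 3 (-0.18 to -0.37), and 3 genes then passed. Neither gene passed with quantile scaling or without the intensity trend.

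**Figure D3:**
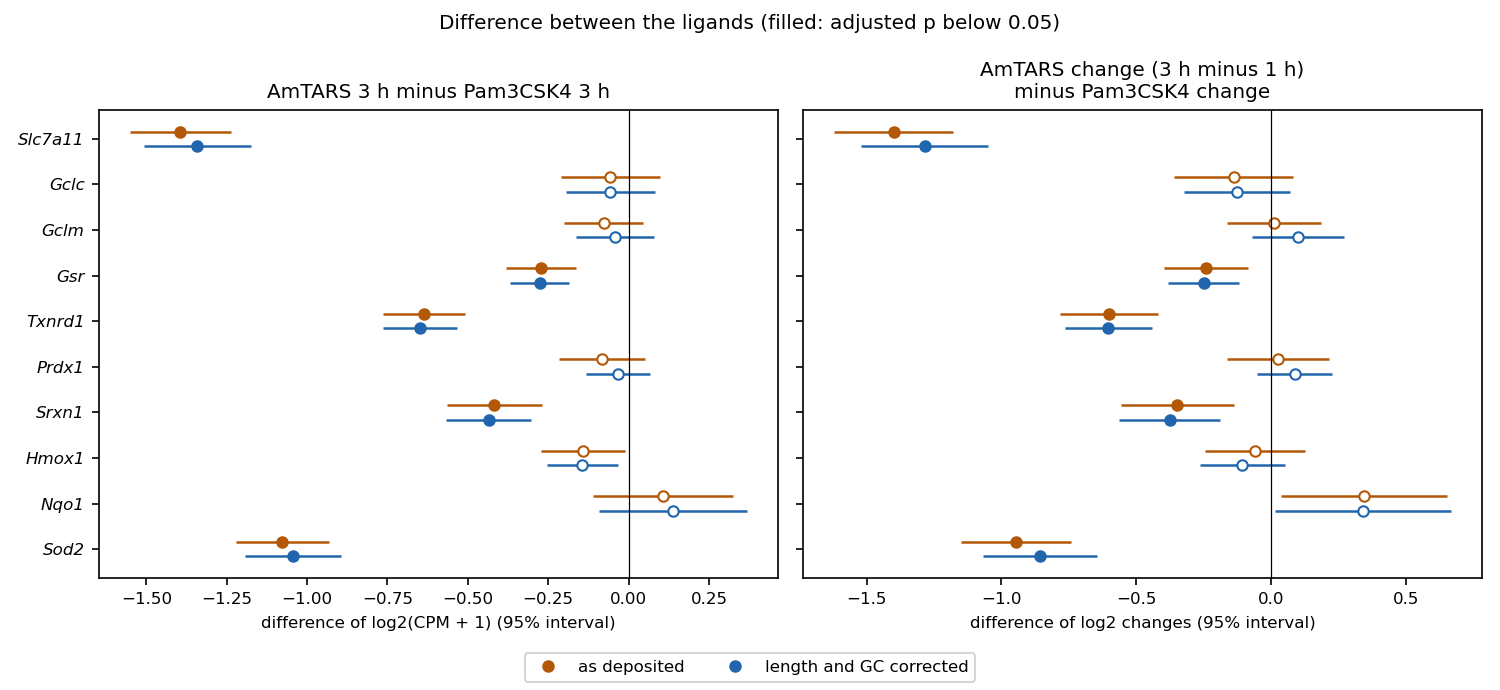
Difference between the ligands for the 10 genes (x axes, log2 units), as deposited (orange) and corrected for length and GC content (blue), as AmTARS 3 h minus Pam3CSK4 3 h in the left panel and as the AmTARS change from 1 h to 3 h minus the Pam3CSK4 change in the right; bars are 95% intervals and filled points have an adjusted p below 0.05. Slc7a11, Sod2, Txnrd1, Srxn1 and Gsr lay below 0 in both panels under both treatments of the data.

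Across the 10 libraries 7 of the genes had Pearson's r from 0.792 (Hmox1 with Slc7a11) to 0.99 with one another. Gclc, Prdx1 and Nqo1 had lower values with them. On the deposited log2 scale Pearson's r was 0.99 between Slc7a11 and Txnrd1 and 0.99 between Gsr and Sod2, while Nqo1 had r between -0.026 and 0.31 with the others. Prdx1 had r from 0.49 with Slc7a11 to 0.791 with Hmox1 among those 7, so no gap set the 7 apart. Gclc had r from 0.58 with Hmox1 to 0.74 with Txnrd1 among them, and 0.12 with Prdx1. These are descriptions over libraries that share the 5 groups and their scaling. Among 9167 genes averaging 5 CPM or more, the profiles most like Slc7a11 were those of Ppfibp2 (r = 0.996), Lcp2 (0.996) and Jag1 (0.995). The profiles nearest to Sod2 were Lmo4, Arl5c and Vasp (0.997, 0.997 and 0.996), and those nearest to Hmox1 were H2-Q4, Tpi1 and Eml2 (0.980, 0.977 and 0.974).

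Of 10 regulators of NRF2, 5 were lower and 0 higher with AmTARS than with Pam3CSK4 at 3 h. Of all genes, 9.08% were lower and 8.04% higher in that comparison. Against control, 4 rose and 2 fell with AmTARS, where 18.8% of all genes were higher and 17.9% lower, while 6 rose and 1 fell with Pam3CSK4, where the shares were 24.7% and 24.2%. The 2 falls with AmTARS are at the share of all genes. The list's median log2 fold change was 0.11 with AmTARS and 0.42 with Pam3CSK4. Sqstm1, the p62 adaptor that binds KEAP1, had 862 and 869 CPM with AmTARS at 3 h and 1173 and 1444 CPM with Pam3CSK4 at 3 h, against 658 and 659 CPM in control. Maff, a small MAF partner, had 6.93 and 8.32 CPM with AmTARS and 16.7 and 21.5 CPM with Pam3CSK4, against 5.97 and 5.56 CPM in control. These are rises of 0.39 and 0.98 for Sqstm1 and of 0.35 and 1.56 for Maff, and corrected Maff was at 0.20 with AmTARS and did not pass. Nfe2l2 itself was at 579 and 589 CPM with Pam3CSK4 at 3 h, against 372 and 376 CPM in control, a rise of 0.64 (SE 0.046). Rbx1, a subunit of the KEAP1 ubiquitin ligase, rose by 0.36 with AmTARS and 0.45 with Pam3CSK4. Its difference between the ligands at 3 h did not pass by limma (-0.089, adjusted p = 0.414).

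Chosen after their values were seen, the genes that fell were Bach1, a repressor at antioxidant response elements, at -0.32 with AmTARS and -0.44 with Pam3CSK4, and the ligase scaffold Cul3 at -0.15 with AmTARS. Corrected, Bach1 was at -0.13 and -0.26 and Cul3 at 0.0088, and only Bach1 with Pam3CSK4 passed. Also chosen so, Nfe2l2 rose by 0.13 with AmTARS (adjusted p = 0.0295), and Keap1 was at 0.038 with AmTARS and -0.011 with Pam3CSK4 and did not pass. After the correction 5 of 10 regulators rose and 0 fell with AmTARS, and 6 rose and 1 fell with Pam3CSK4. Of all genes, 10.8% were then higher and 7.6% lower with AmTARS, and 20.8% and 21.3% with Pam3CSK4. Without control replicate 3 only 3 of the 10 passed with AmTARS, 2 higher and 1 lower.

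Of 20 further genes of glutathione synthesis and use 19 were tested, and 8 rose and 0 fell with AmTARS at 3 h, while 8 rose and 1 fell with Pam3CSK4, beside 18.8% higher and 17.9% lower of all genes with AmTARS and 24.7% and 24.2% with Pam3CSK4. Corrected, 4 rose and 0 fell with AmTARS, where 10.8% of all genes were higher and 7.6% lower, and 5 rose and 5 fell with Pam3CSK4, which is near the 20.8% and 21.3% of all genes. The corrected median was 0.00035 with AmTARS and -0.042 with Pam3CSK4, beside 0.14 and 0.16 uncorrected. Glrx, glutaredoxin, had 81.3 and 79.3 CPM with AmTARS and 100 and 112 CPM with Pam3CSK4 at 3 h, against 52.5 and 54.9 CPM in control, rises of 0.57 and 0.97 that were 0.43 and 0.79 corrected. Esd, which releases glutathione from its formaldehyde adduct, rose by 0.41 and 0.54 in the same order, Ggct, of the glutathione breakdown cycle, by 0.59 with Pam3CSK4, and Gpx4, which reduces lipid peroxides, by 0.37 with AmTARS but was at 0.085 corrected and did not pass.

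Of 14 thioredoxin and peroxiredoxin genes, 8 rose and 1 fell with AmTARS, and 6 rose and 2 fell with Pam3CSK4, where 18.8% of all genes were higher and 17.9% lower with AmTARS and 24.7% and 24.2% with Pam3CSK4. Corrected, 4 rose and 2 fell with AmTARS, beside 10.8% and 7.6% of all genes, and 4 rose and 3 fell with Pam3CSK4, near the 20.8% and 21.3% of all genes. Prdx5, a peroxiredoxin, rose by 0.41 with AmTARS and 0.84 with Pam3CSK4 (0.17 and 0.60 corrected) and Txn1, thioredoxin itself, by 0.39 and 0.47 (0.21 and 0.26 corrected). Txnip, which binds and inhibits thioredoxin, was at -0.33 with AmTARS, and Sesn1, a sestrin, at -0.76 with Pam3CSK4. Without AmTARS 3 h replicate 1 the AmTARS count was 5, with 4 higher and 1 lower. Their medians were 0.17 with AmTARS and 0.11 with Pam3CSK4.

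Of 10 genes of NADPH supply, 5 rose and 1 fell with AmTARS (2 and 1 corrected) and 4 rose and 1 fell with Pam3CSK4 (3 and 1 corrected). Of all genes, 18.8% were higher and 17.9% lower with AmTARS (10.8% and 7.6% corrected) and 24.7% and 24.2% with Pam3CSK4 (20.8% and 21.3% corrected). The corrected count higher with Pam3CSK4 is near the share of all genes. Nadk, the kinase that makes NADP, rose by 0.28 with AmTARS and 0.69 with Pam3CSK4, and Idh1, the cytosolic isocitrate dehydrogenase, was at 349 and 328 CPM with Pam3CSK4, against 472 and 499 CPM in control, a fall to -0.52 on the log2 scale. The pentose phosphate genes Pgls (0.32 with AmTARS, 0.33 with Pam3CSK4) and Taldo1 (0.25 with AmTARS) were at 0.012, 0.012 and 0.073 corrected and did not pass. Of 13 iron and haem genes, 7 rose and 2 fell with AmTARS (5 and 0 corrected) and 6 rose and 3 fell with Pam3CSK4 (5 and 4 corrected), beside the same shares of all genes. Slc11a2, an iron transporter, rose by 0.39 and 0.82, and Blvrb, which reduces biliverdin, by 0.47 and 0.51, which were 0.21 and 0.25 corrected. The ferritin light chain Ftl1 was at 0.33 with each ligand and at 0.063 and 0.049 corrected, where it did not pass. Without AmTARS 3 h replicate 1 the AmTARS count of iron and haem genes was 5, all higher. The medians were 0.12 and 0.14 for the NADPH genes and 0.17 and 0.068 for the iron and haem genes, with AmTARS first.

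Of 12 other genes known as NRF2 targets 10 were tested, and 4 rose and 1 fell with AmTARS and 3 rose and 1 fell with Pam3CSK4, with medians of 0.12 and 0.018. Among all genes 18.8% were higher and 17.9% lower with AmTARS and 24.7% and 24.2% with Pam3CSK4, so the rises with Pam3CSK4 are near the share of all genes. Corrected, 2 rose and 0 fell with AmTARS, beside 10.8% and 7.6% of all genes, and 1 rose and 3 fell with Pam3CSK4, beside 20.8% and 21.3%. Marco, a scavenger receptor, had 35.5 and 33.1 CPM with AmTARS and 52.2 and 65.4 CPM with Pam3CSK4, against 22.8 and 24.3 CPM in control, rises of 0.53 and 1.28. Osgin1, an oxidative stress growth inhibitor, rose by 0.38 with AmTARS and 0.30 with Pam3CSK4, and corrected it was at 0.21 and 0.15 and did not pass with Pam3CSK4 (adjusted p = 0.0673). Cbr3, a carbonyl reductase, was at 0.27 with AmTARS and the efflux pump Abcc4 at -0.23 with Pam3CSK4, and corrected (0.045 and -0.048) neither passed. The AmTARS count of 5 was 3 without AmTARS 3 h replicate 1 or 3 or control replicate 2 and 2 without control replicate 3, and the Pam3CSK4 count of 4 was 1 without Pam3CSK4 3 h replicate 3 and 2 without control replicate 2 or 3.

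Of 11 genes beside Sod2 that make or remove superoxide, 4 rose and 2 fell with AmTARS and 5 rose and 1 fell with Pam3CSK4, with medians of 0.061 and 0.10. Corrected, 4 rose and 1 fell with AmTARS, beside 10.8% and 7.6% of all genes, and 8 rose and 2 fell with Pam3CSK4, beside 20.8% and 21.3%. Uncorrected, of all genes, 18.8% were higher and 17.9% lower with AmTARS and 24.7% and 24.2% with Pam3CSK4, so the falls with AmTARS are at the share of all genes. The NADPH oxidase subunit Cyba rose by 0.44 with AmTARS and 0.48 with Pam3CSK4, and by 0.13 and 0.16 corrected. Its partner Ncf4 rose by 0.27 with AmTARS and 0.59 with Pam3CSK4, and corrected it was at 0.081 with AmTARS, where it did not pass (adjusted p = 0.105), and 0.40 with Pam3CSK4. Sod1, the cytosolic dismutase, was at 0.25 with AmTARS and at -0.018 corrected, where it did not pass. Of 19 NF-kB genes, 15 rose and 2 fell with AmTARS and 18 rose and 0 fell with Pam3CSK4. At 3 h, 19 of 19 were lower with AmTARS than with Pam3CSK4, where 9.08% of all genes were lower and 8.04% higher. The median of that difference was -0.82. Corrected, 12 rose and 1 fell with AmTARS and 19 rose and 0 fell with Pam3CSK4. The inhibitor Nfkbie rose by 0.79 with AmTARS and 1.95 with Pam3CSK4, Relb and Tnip3 by 0.67 and 0.71 with AmTARS, and the inhibitor Nfkbia by 1.72 and the nuclear co-regulator Nfkbiz by 2.12 with Pam3CSK4. The neutrophil marker sums given above were also higher than control with both ligands at 3 h, and their part in these lists was not tested.

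**Figure D4:**
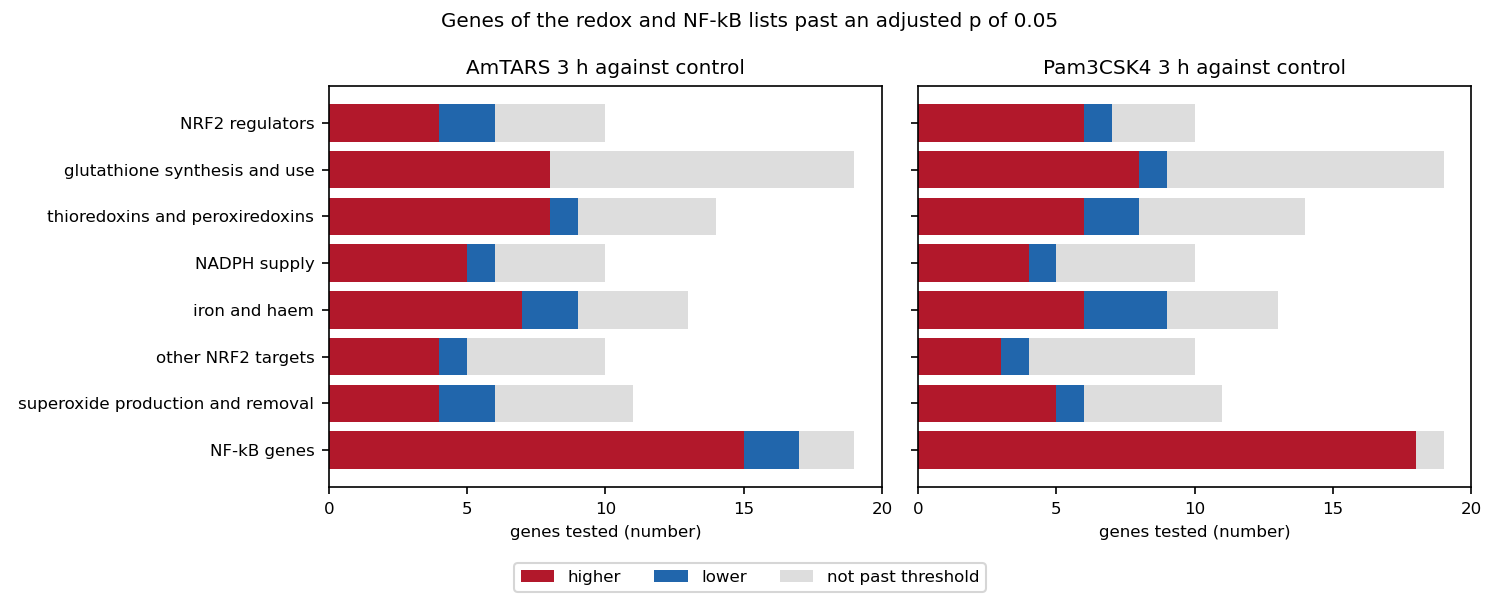
Number of tested genes (x axis) in each of 8 gene lists that were higher (red), lower (blue) or not past an adjusted p of 0.05 (grey) with AmTARS at 3 h (left) and Pam3CSK4 at 3 h (right) against control, uncorrected; the 10 genes of the report are not in the lists. NF-kB genes had 15 and 18 of 19 higher, while glutathione genes had 8 of 19 higher with each ligand. Of all genes, 18.8% were higher with AmTARS and 24.7% with Pam3CSK4. Corrected, glutathione genes had 4 higher and 0 lower with AmTARS and 5 higher and 5 lower with Pam3CSK4. Of all genes, 10.8% were then higher and 7.6% lower with AmTARS, and 20.8% and 21.3% with Pam3CSK4.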

How the data were processed

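Stranded poly(A) RNA libraries of 10 macrophage samples, 2 in each group, were processed with STAR 2.5.1, R 3.3.0 and the mm10 build, as listed in the submitters' processing notes. For the counter, the annotation and the method of scaling between libraries, nothing is given in the sources used here. A scaling beyond total reads was applied, since some recovered library sizes lay below the reads in listed genes. Values deposited by the authors are log2(CPM + 1), for 11617 genes. The values back-transformed to whole reads (100% within 0.1 read), 27398791 to 37559810 per library, and the lowest count was 3. Tested were the 11407 genes averaging 1 CPM or more. limma 3.58.1 in R 4.3.3 fitted 1 level for each of the 5 groups (moderated variance with an intensity trend, 5 residual and 14.7 prior degrees of freedom). P-values were two-sided and adjusted by Benjamini-Hochberg over all genes tested, with a threshold of 0.05. The correction removed from each library a spline in transcript length and GC content (GENCODE M21, longest basic transcript, 11365 genes matched by symbol). Alternatives were median and quantile scaling, other pseudocounts and filters, voom on the recovered reads, a fit of only the groups compared, a replicate block and leaving out each library. Scripts were tested on simulated data. The text names all 10 genes, up to 3 genes with the largest change past the threshold per list and 3 h comparison, and the 3 genes of most similar profile for Slc7a11, Hmox1 and Sod2. The 10 genes and all lists were chosen with earlier results of these data known. The main fit did not pair same-numbered libraries of different groups. The deposited values cannot settle whether the numbers mark a shared mouse or culture.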

Additional observations from a re-analysis of the deposited data

Results flagged for a closer look

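The change from 1 h to 3 h differed between AmTARS and Pam3CSK4, by an interaction term in limma with adjustment over all genes tested, for 5 of the 10 genes. The AmTARS change minus the Pam3CSK4 change was -1.40 for Slc7a11, -0.95 for Sod2, -0.60 for Txnrd1, -0.35 for Srxn1 and -0.24 for Gsr, on the log2 scale. Each was lower with AmTARS. The last 2 had adjusted p-values of 0.0312 and 0.0486 and did not pass in most fits with 1 library left out. With 2 libraries per group, no group was large enough to look for single outlying libraries.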

How the results depend on the processing

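Of 47 calls of the 10 genes over 9 comparisons, 31 held under every alternative run and 16 did not under some. The direction and rough size of the 3 h changes of Slc7a11, Sod2, Txnrd1 and Srxn1 with Pam3CSK4 held throughout, while the small 1 h changes and those of AmTARS over time were sensitive. With 2 libraries per group and 5 residual degrees of freedom, changes under about 0.2 on the log2 scale were near the limit of what the fit could call.

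For AmTARS at 1 h against control, 3 of the 10 genes passed, 0 without the intensity trend and 5 when only the 2 groups compared were fitted. For AmTARS at 3 h against 1 h, 6 passed and 1 without the trend. For the difference of the changes over time, 5 passed and 3 with quantile scaling or without the trend. With 1 library left out the counts were 1 to 5 for AmTARS at 1 h against control, 2 to 4 for Pam3CSK4 at 1 h against control, 3 to 7 for AmTARS at 3 h against 1 h and 3 to 5 for the difference of the changes.

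Of the directions that turned, the called ones were those of Slc7a11 with both ligands and Hmox1 with Pam3CSK4, at 1 h. With the length and GC correction, alone and then with the replicate block, Slc7a11 at 1 h was at 0.044 and 0.044 with AmTARS and 0.10 and 0.018 with Pam3CSK4, Hmox1 at 1 h at -0.039 and -0.039 with AmTARS and -0.0023 and -0.0010 with Pam3CSK4, and Gclm at 1 h with AmTARS at 0.20 and 0.20. Nqo1 with Pam3CSK4 at 3 h was at -0.14 and -0.14. With the correction alone, Nqo1 was at -0.0061 with AmTARS at 3 h and -0.041 with Pam3CSK4 at 1 h, and the Slc7a11 difference between ligands at 1 h was -0.058. Gclm at 1 h with AmTARS was at 0.0032 with median and 0.024 with quantile scaling. With quantile scaling Srxn1 at 1 h with AmTARS was at -0.00049, Prdx1 with Pam3CSK4 at 3 h against 1 h at -0.013 and the Hmox1 difference of changes at 0.043. The cause was not tested.

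With 1 library left out, the ranges that crossed 0 between the ligands at 1 h were -0.048 to 0.057 for Slc7a11, -0.052 to 0.22 for Gclc and -0.076 to 0.0075 for Txnrd1. Between the ligands at 3 h they were -0.16 to 0.0089 for Gclm and -0.19 to 0.028 for Prdx1. For the difference of changes they were -0.075 to 0.10 for Gclm, -0.085 to 0.14 for Prdx1 and -0.19 to 0.072 for Hmox1. Gclm (-0.065 to 0.048) and Srxn1 (-0.0081 to 0.083) crossed 0 for AmTARS at 1 h, Prdx1 (-0.042 to 0.18) for Pam3CSK4 at 3 h against 1 h, and Nqo1 (-0.042 to 0.048) for Pam3CSK4 at 3 h.

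Replicate numbers were shared by 14 pairs of libraries, whose deviations correlated at -0.206 to 0.204 with 5 above 0.1. With 2 libraries per group the deviations within a group mirror each other. These values therefore cannot show whether a number marks a shared mouse or culture. With the replicate block 6 genes passed for AmTARS at 3 h against control instead of 8, with Slc7a11 at 0.22 (adjusted p = 0.0541) and Gsr at 0.17 (adjusted p = 0.0533) not passing, and 2017 of all genes instead of 4186. Gclm for AmTARS at 3 h against 1 h (0.22, adjusted p = 0.058) and Gsr in the difference of changes (-0.32, adjusted p = 0.0624) did not pass with it either, and for the difference of changes it left 672 of all genes instead of 1049. With the replicate block, and with the block and correction together, values turned to 0.0090 and 0.0031 for Gclc between the ligands at 3 h, 0.0060 and 0.0072 for Gsr and 0.0048 and 0.016 for Srxn1 between the ligands at 1 h, and -0.12 and -0.087 for Gclm and -0.16 and -0.054 for Prdx1 in the difference of changes. The block with the correction gave -0.0024 for Srxn1 with Pam3CSK4 at 1 h. With the AmTARS 1 h numbers crossed, a pairing added after seeing the data, 5042 genes passed for AmTARS at 1 h against control, 4600 with the numbers as given and 4415 with no block.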

Other observations

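At 1 h, genes of glutathione and thioredoxin metabolism outside the 10 stood higher than control as deposited and much less so after the length and GC correction. Of 19 tested genes of glutathione synthesis and use, 13 rose and 1 fell with each ligand at 1 h, where 18.9% of all genes were higher and 19.8% lower with AmTARS and 23.9% and 24.8% with Pam3CSK4. The list had medians of 0.18 with AmTARS and 0.24 with Pam3CSK4. Corrected, 4 rose and 0 fell with AmTARS and 4 rose and 2 fell with Pam3CSK4, with medians of 0.012 and 0.022. The corrected shares over all genes were 8.13% higher and 5.86% lower with AmTARS and 11.7% and 11.1% with Pam3CSK4. The AmTARS count of 14 was 7 without AmTARS 1 h replicate 2, 9 without AmTARS 1 h replicate 3 and 5 without control replicate 2. Of 14 thioredoxin and peroxiredoxin genes, 9 rose and 2 fell with AmTARS and 10 rose and 2 fell with Pam3CSK4, and corrected 3 rose and 2 fell with AmTARS and 5 rose and 2 fell with Pam3CSK4. Without control replicate 2 the AmTARS count of 11 was 7. NF-kB genes at 1 h gave 9 higher and 2 lower of 19 with AmTARS and 9 higher and 3 lower with Pam3CSK4, and corrected 7 higher and 1 lower, and 6 higher and 1 lower. The ligands share the control libraries. The summed neutrophil markers at 1 h were 1889 to 1946 CPM with AmTARS and 1879 to 2242 CPM with Pam3CSK4, against 1404 to 1491 CPM in control. These sums were not corrected for length and GC content, and their part in these counts was not tested.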
